A study of Mus musculus with 4 samples.

Results

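The regions described here are the short autosomal members of a list of places where the 2 parental alleles of mouse cortex differ in DNA methylation. They were taken from the list by 3 conditions: a numbered chromosome, an end minus start under 50 bp, and a methylation level given for each allele. Of 1600 listed regions with levels, 1006 were autosomal, and 445 of these were short. Prefrontal cortex came from female F1 mice, 14 weeks old, with the strain label C57BL6J/Spretus, and was measured by RNA-seq and by MethylC-seq, which reads single cytosines after bisulfite treatment. All animals carried a mutation of the noncoding RNA Xist on the maternal allele, and no group without it was analysed here. Tissue of 2 individuals from separate litters was pooled for DNA and RNA, and each assay has 2 libraries. The labels' protocols say that the MethylC-seq libraries came from separate PCR reactions on the same ligated DNA, so they are technical replicates. The region list gives 1 level per allele and none per library, so the spread between libraries is not known.

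In mammals most cytosines followed by guanine (the CG pair, or CpG) carry a methyl group, and unmethylated CpGs cluster at gene starts and other regulatory DNA. At imprinted loci a single parental copy is methylated, a state set in the germ line, and the genes there are expressed from 1 parental copy. In neurons cytosines outside CpGs are methylated as well. Bisulfite sequencing reads an unmethylated cytosine as thymine, so methylation on an allele can be seen only where that allele holds a cytosine.

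2 of the 445 regions lay within the windows of a RefSeq promoter table (build GRCm38.p6, the same assembly as mm10), and they are shown because they are the members whose bases could be read. The stretches below run 5′ to 3′ on the strand of the gene, cover the 250 bases before its transcript start, and carry the region in capitals. The first, at chr4:155802628-155802877 (plus strand), lies before Mrpl20, a gene of the mitochondrial ribosome. The second, at chr7:62464511-62464760 (minus strand), lies before Peg12, a paternally expressed gene of the Prader-Willi region.
Mrpl20: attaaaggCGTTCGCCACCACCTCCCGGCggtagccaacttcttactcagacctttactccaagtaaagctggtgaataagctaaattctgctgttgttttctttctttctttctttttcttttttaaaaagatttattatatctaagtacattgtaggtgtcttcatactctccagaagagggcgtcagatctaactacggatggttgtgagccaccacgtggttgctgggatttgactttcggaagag
Peg12: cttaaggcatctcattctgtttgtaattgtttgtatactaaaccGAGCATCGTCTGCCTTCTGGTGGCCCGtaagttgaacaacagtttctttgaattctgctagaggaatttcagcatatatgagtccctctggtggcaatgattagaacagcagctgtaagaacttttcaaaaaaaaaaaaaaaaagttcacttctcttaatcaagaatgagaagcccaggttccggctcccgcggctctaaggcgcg

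The Mrpl20 region lay 222 to 242 bases upstream of the start, with a level of 0.869 on C57 and 0.0408 on Spretus. The Peg12 region lay 180 to 206 bases upstream, with 0.686 on C57 and 0 on Spretus. 4 CG pairs lay in or at the edge of the Mrpl20 region and 3 in or at the edge of the Peg12 region. Among the 32851 windows, 3.15% and 11.9% held as many CG pairs at the same place and width. These shares are no measure of enrichment, since the ends of listed regions stood on CG pairs (below) and the compared places were not chosen that way. The pair CG reads the same on both strands and was searched by its letters alone. Both regions thus began and ended on a base of a CG pair. So did the other listed regions whose ends could be read: of 63 region starts of any length that fell inside a window, 63 stood on the C (31) or the G (32) of a CG pair, and of 55 ends, 55 did. In all windows, 8.28% of bases belong to a CG pair. The bases of the other short regions were not analysed here.

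Reads with an allele assignment numbered 4768237 in the first RNA library (library 1) and 1291903 in the second (library 2), a 3.69-fold difference in depth. C57 was taken as the maternal allele, which carries the mutation, from the order of the strain label. Xist had 2158 Spretus and 31 C57 reads in the first library and 795 and 9 in the second, so its reads came from the allele without the mutation under this reading. Markers of cortical cells were present. The pan-neuronal genes had a median of 455 FPKM, a read density scaled for gene length and library depth, in the first library and 107 in the second. The astrocyte, oligodendrocyte, microglia and endothelial lists had medians from 9.73 to 78.8 in the first library and from 1.30 to 9.02 in the second. The choroid plexus list stood at 0.357 and 0.161, and the blood list at 189 and 12.8. The median of each list was lower in the second library although FPKM is scaled for depth. FPKM values are thus not comparable between the libraries. None of the marker genes overlapped a short region.

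Short autosomal regions were nearly all more methylated on the C57 allele. Of the 445, 409 were higher on C57 and 36 on Spretus, a C57-higher share of 91.9% (exact Clopper-Pearson 95% interval 89.0 to 94.3%). An exact binomial test against equal numbers gave p = 3.32e-81 (two-sided, adjusted p = 4.65e-80 over 14 comparisons of regions). This test and those below treat regions as independent, although all levels come from 1 pool of DNA, so the p-values measure counts of regions and not the spread between animals. The direction held on each chromosome: the share ranged from 73.3% on chromosome 18 to 100% on chromosomes 10 and 14. Chromosome 10 held 30 regions and chromosome 14 held 20, all higher on C57.

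The direction went with length. Autosomal regions of 200 bp and longer were higher on C57 in 211 of 361 cases (58.4%), and regions from 50 bp to under 200 bp in 118 of 200 (59.0%). Short regions differed from the long ones with an odds ratio of 8.08 (Fisher's exact test, two-sided, p = 5.84e-30, adjusted p = 2.73e-29) and from the mid-length ones with an odds ratio of 7.90 (p = 1.03e-21, adjusted p = 3.60e-21). Within the short class, the C57-higher share was 95.7% under 20 bp (309 of 323) and 82.0% from 20 to 49 bp (100 of 122), a difference chosen for a test after its values were seen (odds ratio 4.86, Fisher's exact test, p = 1.53e-05, adjusted p = 2.15e-05). On the X chromosome, where Xist came mostly from Spretus, 15 of 38 short regions were higher on C57 (39.5%), fewer than on the autosomes (odds ratio 17.4, Fisher's exact test, p = 5.57e-14, adjusted p = 1.56e-13). By length, 5 of 7 X-linked regions under 10 bp and 6 of 10 of 10 to 19 bp were higher on C57, against 44 of 436 of 200 bp and longer (10.1%), which was not tested. Of the 15 short C57-higher X regions, 10 had a Spretus level of exactly 0.

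**Figure D1:**
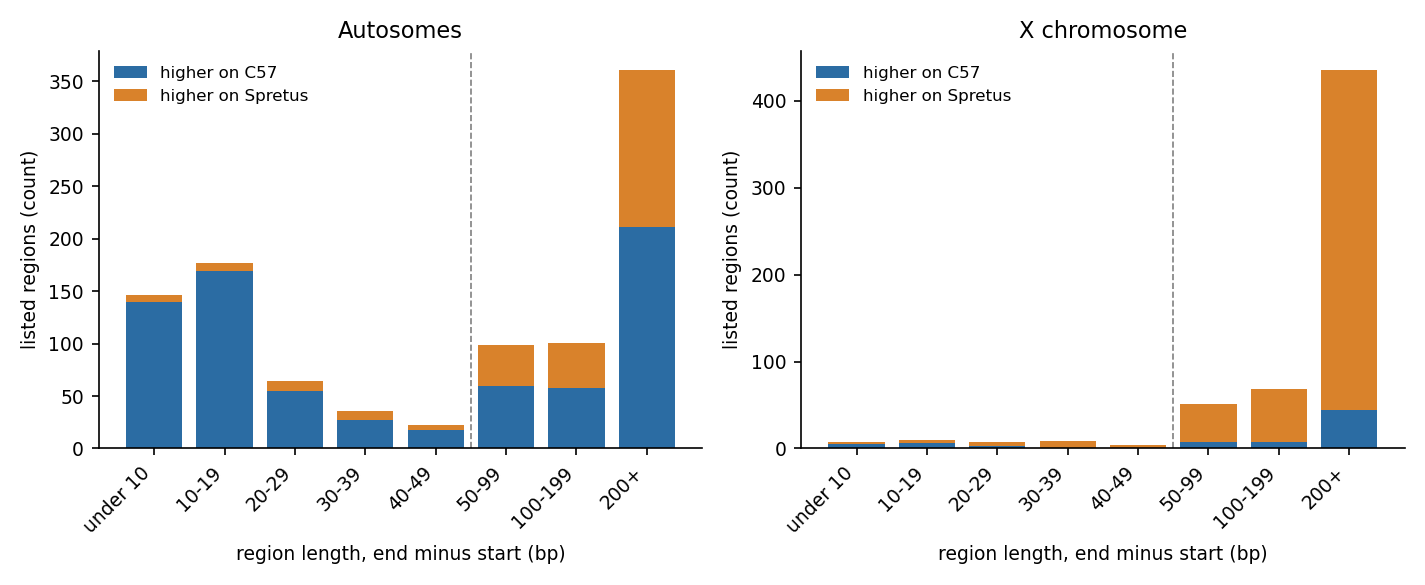
Listed regions with levels by length class (x axis, end minus start in bp) and count (y axis), on autosomes and on the X chromosome, with regions higher on C57 in blue and on Spretus in orange. Left of the dashed line at 50 bp, 409 of 445 autosomal regions are higher on C57, while on the X chromosome 15 of 38 are and the regions of 50 bp and longer are mostly higher on Spretus.

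The levels were close to all or none. In the C57-higher regions the C57 level ran from 0.597 to 1 with a median of 0.979, and the Spretus level from 0 to 0.836 with a median of 0. A level of exactly 0 on Spretus was listed for 314 of the 409, and 71 were at exactly 1 on C57 and 0 on Spretus. 17 had a Spretus level above 0 and up to 0.1, 67 above 0.1 and up to 0.5, and 11 above 0.5. Counting as all or none a region with 1 allele at 0.9 or more and the other at 0.1 or less, 302 of the 445 qualified (67.9%, exact interval 63.3 to 72.2%), against 25 of 361 regions of 200 bp and longer (6.93%). The odds ratio was 28.4 (Fisher's exact test, p = 3.62e-77, adjusted p = 2.54e-76). The regions were listed because their levels differ between alleles, so this share is a description. Its p-value cannot separate a trait of short regions from the way regions were called. The number of reads and of cytosines behind a level is not known, and a level over few reads reaches exactly 0 or 1 more easily. The part of depth in this difference was not tested.

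Regions of the opposite direction were less extreme. In the 36 Spretus-higher regions the Spretus level ran from 0.687 to 1 with a median of 0.887, and the C57 level from 0 to 0.5 with a median of 0.0773. The lower allele stood at exactly 0 in 11 of these 36 (30.6%), against 314 of 409 C57-higher regions (76.8%; odds ratio 7.51, Fisher's exact test, p = 3.13e-08, adjusted p = 4.87e-08). 8 of the 36 were all or none (22.2%), against 294 of 409 (71.9%; odds ratio 8.95, Fisher's exact test, p = 5.49e-09, adjusted p = 9.61e-09). An allele with thymine in place of these cytosines could give a level of 0, and the build mm10 is the genome of C57BL/6J. The Spretus bases under the regions were not analysed here, so a base change and a lack of methylation cannot be told apart in these files. The part of strain variants was not tested.

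**Figure D2:**
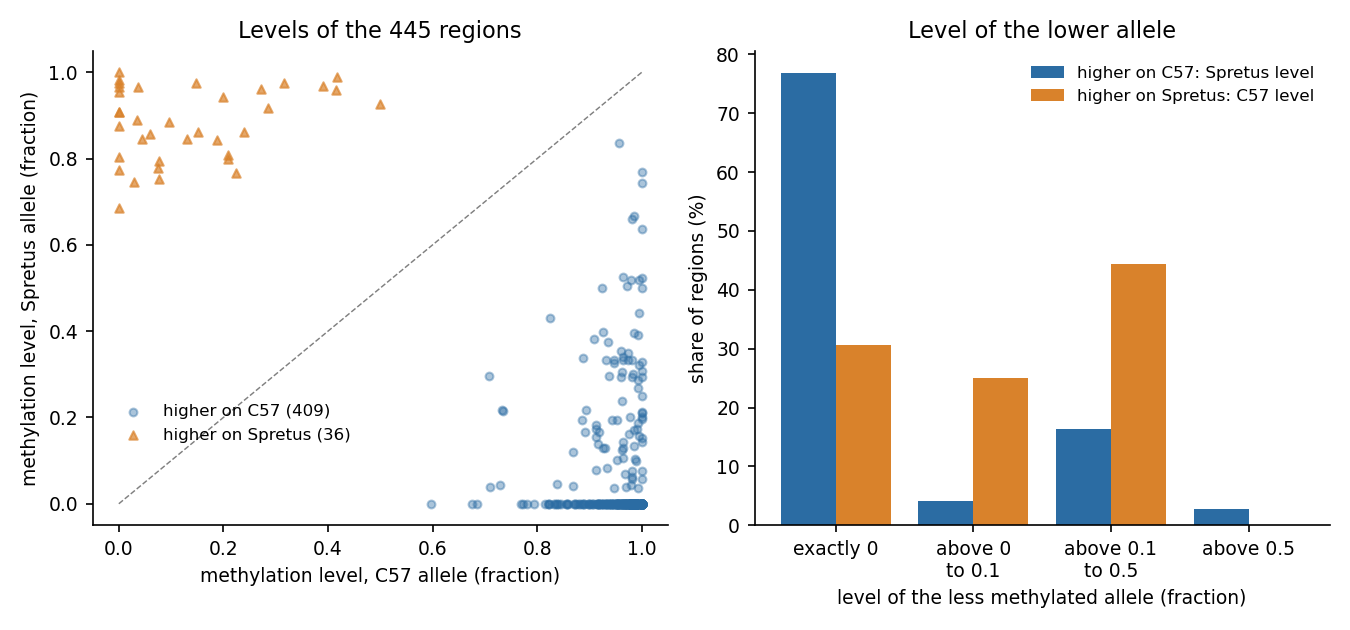
Left, methylation level on the C57 allele (x axis) against the Spretus allele (y axis) for each of the 445 short regions, as fractions, with the line of equal levels. Right, share of regions (y axis, %) by the level of the less methylated allele: 76.8% of C57-higher regions are at exactly 0, against 30.6% of Spretus-higher regions.

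The C57-higher regions with a difference of 1, the largest possible, lay in and outside genes. The longest of these, at chr14:36744664-36744696 and chr7:78147307-78147329, lay outside listed loci. Next came chr7:79610143-79610163 in Rhcg, an ammonium transporter gene, chr4:126404517-126404535 in the Argonaute gene Ago3, chr9:16851476-16851494 outside listed loci, and chr9:28276684-28276702 in Opcml, a neuronal adhesion gene. A region of the same levels and length as the last 3, chr9:40851106-40851124, named after its values were seen, also lay outside listed loci. Among Spretus-higher regions, 1 stood at 0 on C57 and 1 on Spretus, at chr16:90349956-90349971 outside listed loci. It was followed by a region in Fhod3, a formin gene of the actin skeleton, with 0 and 0.982 (chr18:24940243-24940256). The region in the imprinted gene Zdbf2 had 0 and 0.974, and that in Fah, an enzyme gene of tyrosine breakdown, 0 and 0.967 (chr7:84594667-84594675). A region at chr1:176580873-176580885 had 0 and 0.955, and one at chr4:86612395-86612408 had 0.0370 and 0.966.

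Region lengths were mostly even numbers of base pairs, and this was seen in the C57-higher regions. Of these 409, 346 had an even end minus start (84.6%), against 19 of the 36 Spretus-higher regions (52.8%; odds ratio 4.91, Fisher's exact test, p = 2.23e-05, adjusted p = 2.84e-05). Between 6 and 20 bp, 290 C57-higher regions were even and 20 odd, while Spretus-higher regions were even in 8 cases and odd in 8. The most frequent length was 8 bp, with 61 members. The C57-higher regions of 200 bp and longer were even in 120 of 211 cases (56.9%), fewer than the short ones (odds ratio 4.16, Fisher's exact test, p = 1.37e-13, adjusted p = 3.19e-13), and those from 50 bp to under 200 bp in 61 of 118 (51.7%). The X chromosome gave like shares in its short regions, with 13 of 15 C57-higher and 9 of 23 Spretus-higher regions even, which was not tested.

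Even length and a Spretus level of 0 went together. Among the C57-higher regions, 279 of 346 with an even length were at exactly 0 on Spretus (80.6%), against 35 of 63 with an odd length (55.6%; odds ratio 3.33, Fisher's exact test, p = 6.47e-05, adjusted p = 7.55e-05). The C57 medians were the same at 0.979 in both. The even regions were also shorter, with a median of 12 bp against 17 bp. The pattern in length, and its tests, were chosen after the values were seen. The list also held 12 autosomal entries under 50 bp with no level for either allele, which are no members, and 12 of these 12 had even lengths, from 6 to 30 bp.

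**Figure D3:**
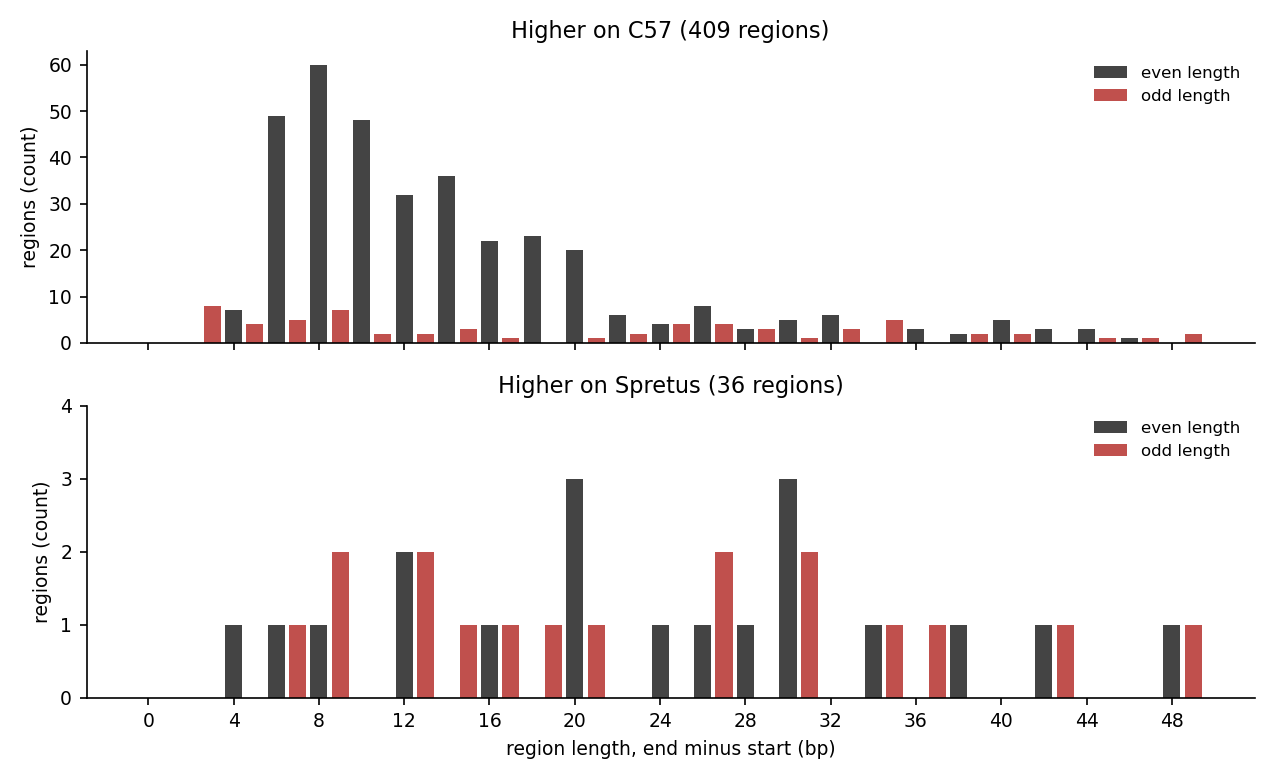
Number of short regions (y axis) at each length in bp (x axis), with even lengths in dark grey and odd lengths in red, for 409 C57-higher regions (top) and 36 Spretus-higher regions (bottom). Even lengths from 6 to 20 bp hold 290 of the C57-higher regions, and no such comb is seen among the Spretus-higher regions.

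The members were spread singly over the autosomes. They ran from 3 to 49 bp with a median of 12 bp. Counts ran from 6 on chromosome 19 to 37 on chromosome 2. Per Mb of the span of listed genes, they ran from 0.103 on chromosome 19 to 0.243 on chromosome 16. Neighbours on a chromosome were a median of 3381849 bp apart, and 1 pair lay within 10 kb. The nearest autosomal region of 50 bp or longer was a median of 1607682 bp away, and 4 members had one within 5 kb. The closest of these 4 was the member in Peg10, 618 bp from a region of 1103 bp at 0.972 on C57 and 0 on Spretus. Next to it came a member at chr4:129096208-129096226 (0.932 and 0), 706 bp from a region of 632 bp with 0.653 and 0.135. The third, at chr6:57488130-57488138 (0.973 and 0), lay 2392 bp from a region with 0.813 and 0.267. The fourth, at chr10:117386769-117386783 (0.963 and 0), lay 3545 bp from a region of the opposite direction, with 0.423 and 0.844.

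The limit of 50 bp cut through a continuous range of lengths. Just inside it, at 49 bp, stood chr10:118035690-118035739 (0.888 on C57 and 0.339 on Spretus), chr15:74896492-74896541 (0 and 0.774) and chr6:67980562-67980611 (0.977 and 0). Just outside, at 51 bp, stood chr1:119647787-119647838 (0.272 and 0.913), chr14:55338644-55338695 (0 and 0.650) and chr18:32365769-32365820 (0.952 and 0.325).

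By the locus column of the RNA-seq tables, 222 of the 445 regions lay inside a listed gene locus (49.9%, exact interval 45.1 to 54.6%). This was close to the 177 of 361 regions of 200 bp and longer (Fisher's exact test, p = 0.832, adjusted p = 0.832). Of the 222, 213 lay in 1 locus and 9 in 2. Exons and introns were not assigned. The regions outside were a median of 26279 bp from the nearest locus. Loci with at least 1 FPKM in each RNA library covered 114 regions (25.6%). Of 228 overlapped gene identifiers, 165 reached this value in the first library (72.4%, against 34.7% of autosomal identifiers) and 112 in the second. The second library thus mostly set the share of 25.6%.

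Gene starts were a different matter. On the chromosomes of the RefSeq promoter table, which has no entries for chromosome 18, 25 of 430 short regions lay within 2 kb of a transcript start (5.81%, exact interval 3.80 to 8.46%). Of the regions of 200 bp and longer, 76 of 340 did (22.4%; odds ratio 0.214, Fisher's exact test, p = 1.48e-11, adjusted p = 2.96e-11). A long region covers more ground, which was not corrected for. The median distance to a start was 36198.5 bp for short and 16365 bp for long regions. Within the short class, Spretus-higher regions were near a start more often, with 7 of 32 (21.9%) against 18 of 398 C57-higher ones (4.52%; odds ratio for C57-higher 0.169, Fisher's exact test, p = 0.00120, adjusted p = 0.00129). These comparisons by distance to a start were chosen after the data were seen.

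**Figure D4:**
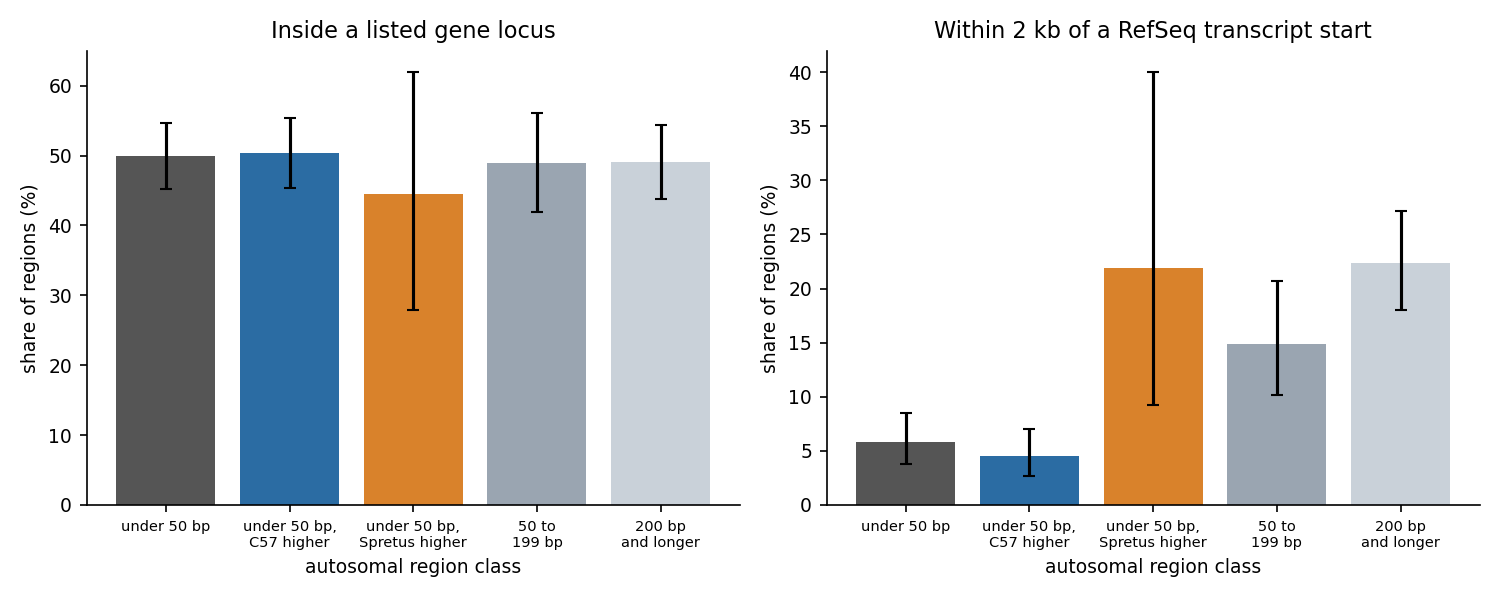
Share of autosomal regions (y axis, %) inside a listed gene locus (left) and within 2 kb of a RefSeq transcript start (right) by class (x axis), with exact 95% intervals as error bars. The share inside a locus lies between 44.4% and 50.4% in all 5 classes, while short C57-higher regions stand at 4.52% near starts against 22.4% of the long regions.

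The starts near Spretus-higher regions, named after their values were seen, were those of Inka2, Haus6, Dguok, Gm29688, Ppib, Mfsd6l and Hmgcs1. Haus6 is a gene of the augmin complex of the spindle, Dguok a mitochondrial nucleoside kinase, Ppib a cyclophilin and Hmgcs1 an enzyme of sterol synthesis. The region 552 bp from the start of Hmgcs1 stood at 0.0286 on C57 and 0.747 on Spretus. Hmgcs1 had 662 C57 and 617 Spretus reads in the first library and 225 and 198 in the second, a Spretus share of 47.5% ± 1.01 (SD, n = 2). The region 514 bp from the start of Ppib had 0.0769 and 0.795, and the Spretus share of Ppib reads was 54.2% ± 1.04. The reads of Hmgcs1 and Ppib thus came from both alleles in similar amounts. Haus6 and Dguok were also tested and not called, Mfsd6l had no allele-assigned read, and Inka2 and Gm29688 were not matched by symbol. Of the 25 nearest starts, 16 had a gene of the same symbol in the RNA tables and 9 of these were tested for allelic imbalance. None was called by edgeR's quasi-likelihood test (Benjamini-Hochberg), and with the library as a block the test called 2, Wdfy4 (adjusted p = 0.0112) and Hif1an (adjusted p = 0.00182). The shares called over all autosomal genes tested were 5.43% without and 22.5% with the block, so 2 of 9 is near the background. Wdfy4 had a Spretus share of 28.7% ± 5.26 and Hif1an of 35.96% ± 4.53 (SD, n = 2), each beside a C57-higher region. Mrpl20 had 56 C57 and 54 Spretus reads in the first library and 18 and 10 in the second. Peg12 had 1 Spretus read in the first library and none from C57 in either library, so nothing could be read from its expression.

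Few of the 445 members lay at imprinted genes. Of 35 maternally and 42 paternally expressed imprinted genes listed, 34 and 38 were found in the tables. A short region lay inside the locus of 1 of the former and 3 of the latter, and Peg12 had one within 2 kb. Over all autosomal gene identifiers, 228 of 42106 held a short region. The imprinted genes were thus not below this share, a comparison that was not tested or matched for locus length. In Peg10, a paternally expressed gene derived from a retrotransposon, the region chr6:4749456-4749483 stood at 0.982 on C57 and 0 on Spretus. In Zdbf2, a paternally expressed zinc finger gene, chr1:63309924-63309967 stood at 0 and 0.974. In H13, which encodes signal peptide peptidase and stands in the paternal list, chr2:152701547-152701557 stood at 1 and 0. In Ago2, the Argonaute gene of RNA silencing with maternal expression in brain, chr15:73115499-73115539 stood at 0.912 and 0.0787. Peg10 and Zdbf2 thus lay under regions of opposite direction, and both were expressed from Spretus.

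The reads of these 4 genes were uneven between alleles in each library. Peg10 had 6 C57 and 152 Spretus reads in the first library and 0 and 40 in the second, where a count of 0 allows a C57 share of up to 7.50%. Zdbf2 had 9 and 205 in the first library and 8 and 65 in the second, a Spretus share of 92.4% ± 4.78 (SD, n = 2). H13 had 301 and 158 in the first library and 60 and 29 in the second (33.5% ± 1.30). Most H13 reads thus came from C57. The place of H13 in the paternal list was not checked here, so these reads are not shown to depart from its imprint. Ago2 had 713 and 278 in the first library and 176 and 54 in the second (25.8% ± 3.23). Log2 ratios of Spretus over C57 in edgeR's quasi-likelihood test (Benjamini-Hochberg) were 5.10 for Peg10 (SE 0.42, adjusted p = 4.27e-06) and 4.10 for Zdbf2 (SE 0.38, adjusted p = 1.04e-05). The first library alone gave 4.63 for Zdbf2 and the second alone 3.14. In the fit of both libraries the ratios were -1.36 for Ago2 (SE 0.19, adjusted p = 4.33e-04) and -0.82 for H13 (SE 0.20, adjusted p = 0.0211), and DESeq2 did not call H13 (adjusted p = 0.249). The locus of H13 holds Mcts2 and that of Ago2 overlaps Chrac1, so reads in the shared stretches cannot be assigned to 1 gene alone. Across the lists, 10 of 21 tested maternal and 21 of 25 tested paternal genes were called, where the share over all autosomal genes tested was 5.43%. Of 18 genes that write or read DNA methylation, 15 were tested and 3 called, against the same 5.43%, which covers autosomal genes only. None of the 18 held a short region, where 228 of 42106 autosomal gene identifiers did.

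Genes that hold a short region were called imbalanced about as often as other autosomal genes. The 222 regions overlapped 228 gene identifiers, of which 158 passed the minimum of 10 allele-assigned reads per library and were tested. 70 were not tested, and 23 of these had no allele-assigned read. In the test, 11 of the 158 were called at an adjusted p under 0.05 (6.96%), against 5.43% of all 11584 autosomal genes tested. Without the imprinted genes, 7 of 154 were called (4.55%). With the library as a block the count was 43 of 158 (27.2%) against 22.5% of autosomal genes, and DESeq2 called 6 (3.80%) against 2.2%. Toward C57 there were 4 calls (background 3.04% of autosomal genes) and toward Spretus 7 (background 2.39%).

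The median size of the log2 ratio was 0.20 in the overlapped genes and 0.21 in all autosomal genes tested. Overlapped genes had a median locus of 153 kb against 26.7 kb for all autosomal genes tested, and a median of 482 against 298 reads. Of the 228, 204 had a RefSeq entry of the same symbol, 189 of them protein-coding and 13 long noncoding RNAs. Of the 145 tested genes under C57-higher regions, 3 were called toward C57 and 6 toward Spretus. Of the 13 under Spretus-higher regions, 1 was called each way. These calls include imprinted genes. Outside the imprinted lists, Mttp was called toward the more methylated allele, and Traf5, Cep192, Sfrp1, Lrig1, Nell1 and Ulk4 toward the less methylated one. The calls are few, and a link between the direction of regions and of reads was not tested.

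**Figure D5:**
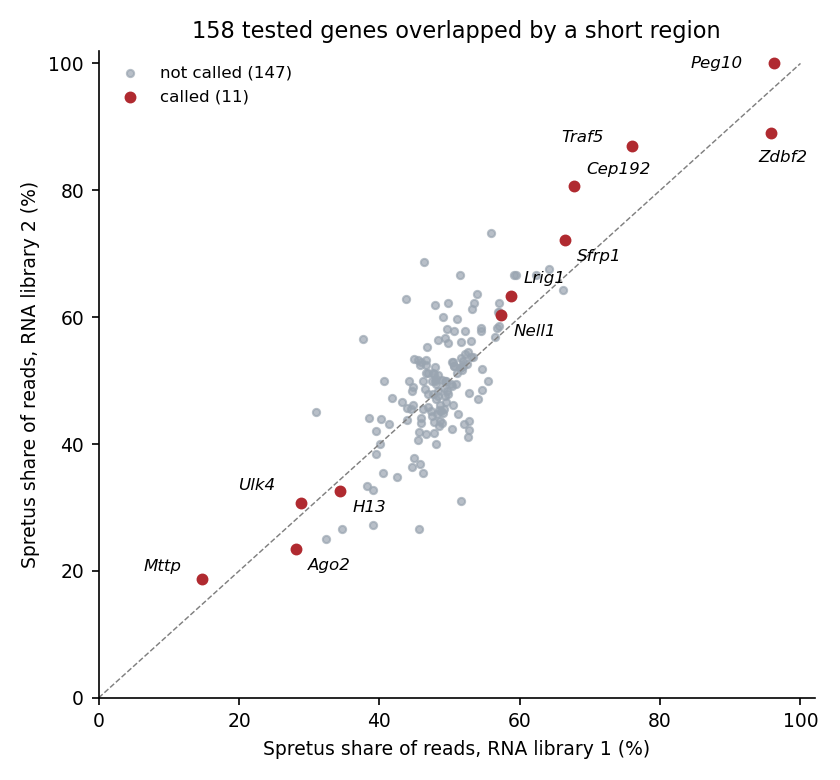
Share of allele-assigned reads from Spretus in RNA library 1 (x axis, %) and library 2 (y axis, %) for the 158 tested genes overlapped by a short region, with the 11 called genes in red and labelled. Most genes lie near 50% in each library, and Peg10 and Zdbf2 stand at the upper right with Spretus shares of 89.0% or more.

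Outside the imprinted list, Mttp and Ulk4 were called toward C57. Mttp, which encodes a protein that loads lipid onto apolipoprotein B, had 52 C57 and 9 Spretus reads in the first library and 13 and 3 in the second (16.8% ± 2.83 Spretus, SD, n = 2). Its region, chr3:138139113-138139119, stood at 0.769 on C57 and 0 on Spretus. Ulk4, a gene of the Unc-51-like kinase family, had 94 and 38 reads in the first library and 18 and 8 in the second (29.8% ± 1.40), and its region of 4 bp, chr9:121108169-121108173, was higher on Spretus, with 0 and 0.805. In each gene the allele with more reads was the same in both libraries. The log2 ratio was -2.28 for Mttp (SE 0.36, adjusted p = 0.00107) and -1.12 for Ulk4 (SE 0.30, adjusted p = 0.0369) in edgeR's quasi-likelihood test (Benjamini-Hochberg). Other loci overlap both genes, Trmt10a among those at Mttp and Ctnnb1 among those at Ulk4. DESeq2 did not call Ulk4 (adjusted p = 0.398), and neither did edgeR with a total shared by the alleles of a library (adjusted p = 0.0518).

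Traf5, Cep192, Sfrp1, Lrig1 and Nell1 were called toward Spretus, each under a C57-higher region. Traf5, an adaptor of tumour necrosis factor receptors, had 17 C57 and 54 Spretus reads in the first library and 3 and 20 in the second, a Spretus share of 81.5% ± 7.71 (SD, n = 2). The centrosome gene Cep192 had 100 and 210 in the first library and 12 and 50 in the second (74.2% ± 9.12). Sfrp1, a secreted antagonist of Wnt signalling, had 46 and 91 in the first library and 12 and 31 in the second (69.3% ± 4.01). Lrig1, a membrane protein that restrains growth factor receptors, had 167 and 238 in the first library and 30 and 52 in the second (61.1% ± 3.29). Nell1, a secreted protein with EGF-like repeats, had 179 and 240 in the first library and 40 and 61 in the second (58.8% ± 2.204). In all 5 genes Spretus reads outnumbered C57 reads in each library.

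Their log2 ratios ran from 2.06 for Traf5 (SE 0.36, adjusted p = 0.00242) to 0.61 for Nell1 (SE 0.17, adjusted p = 0.0442) in edgeR's quasi-likelihood test (Benjamini-Hochberg). The regions had Spretus levels of 0 in Traf5 (chr1:191998839-191998863), Sfrp1 (chr8:23416141-23416149), Lrig1 (chr6:94646197-94646209) and Nell1 (chr7:50586473-50586483), and of 0.152 in Cep192 (chr18:67836821-67836861). DESeq2 called Traf5 and Cep192 but not Sfrp1 (adjusted p = 0.0948), Lrig1 (0.455) or Nell1 (0.625). Other loci overlap Traf5, Lrig1 (Slc25a26 among them) and Nell1 (Nell1os among them), so reads in the shared stretches cannot be assigned to 1 gene alone. No other listed locus overlaps Cep192 or Sfrp1. The second library alone gave log2 ratios of 2.86 for Traf5 and 2.18 for Cep192, against 2.06 and 1.41 with both libraries. Lrig1 and Nell1 were also not called with 1 total for both alleles of a library (adjusted p = 0.184 and 0.188).

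The 10 overlapped genes with the most reads drew on both alleles. Sorl1, a sorting receptor of neurons, held 2 short regions, chr9:42004979-42004987 (0.989 on C57 and 0 on Spretus) and chr9:42080497-42080515 (0.978 and 0). It had 2060 C57 and 2245 Spretus reads in the first library and 630 and 745 in the second (53.2% ± 1.44 Spretus, SD, n = 2). Rab3c, a GTPase of synaptic vesicles, stood at 47.6% ± 1.53, the adhesion gene Lsamp at 48.0% ± 2.00 and the receptor gene Lrp1b at 51.7% ± 1.77. Rap1gap2 stood at 52.9% ± 4.39, the protocadherin gene Pcdh10 at 48.8% ± 1.32, Oxr1 at 49.5% ± 0.834, Nav3 at 54.6% ± 2.32, the neurexin gene Nrxn3 at 48.8% ± 0.933 and Opcml at 49.7% ± 0.882. None of these 10 was called without the block. With it, where 22.5% of all autosomal genes tested were called, edgeR's quasi-likelihood test (Benjamini-Hochberg) called 4 of them, Sorl1 (log2 ratio 0.29, adjusted p = 8.10e-09), Nav3 (0.34, 1.77e-06), Lrp1b (0.19, 0.00443) and Rap1gap2 (0.19, 0.00531).

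Other genes with 2 short regions were Myo6, an actin motor gene, and Naaladl2. Myo6 held chr9:80208606-80208614 (1 on C57 and 0.2 on Spretus) and chr9:80212348-80212354 (0.965 and 0), the pair of members closest to each other. Its Spretus share was 49.5% ± 4.09 (SD, n = 2). Naaladl2 held chr3:24197543-24197561 (0.995 and 0) and chr3:24292641-24292676 (0.922 and 0), with a share of 52.7% ± 3.87. Fhod3, over the second most different Spretus-higher region, had 445 C57 and 578 Spretus reads in the first library and 122 and 161 in the second (56.7% ± 0.276). It was not called without the block (log2 ratio 0.51, adjusted p = 0.142) and was called with it (adjusted p = 1.85e-07) in edgeR's quasi-likelihood test (Benjamini-Hochberg).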

How the data were processed

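The methylation data the authors deposited are a table of regions with 1 fraction (0 to 1) per allele. Its name points to methylpy. Caller version, thresholds, cytosine context, coverage and pooling were not given in the sources used here. For RNA-seq the authors deposited raw read counts per gene for each allele and 1 FPKM value per gene. Tools in the submitters' processing notes, with no roles, are HTSeq 0.6.0, TopHat2 2.0.9, bedtools 2.2.4 and Cufflinks 2.1.1, and the build is mm10. How reads were assigned to alleles is not given in the sources used here.

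Of 1613 listed regions, 13 had no levels. Region starts and ends are as listed. Loci overlapped by 1 bp or more were counted. Allelic imbalance was tested with edgeR 4.0.16 in R 4.3.3 (glmQLFit and glmQLFTest, TMM, allele as the only term, 10 or more allele-assigned reads per library, Benjamini-Hochberg over 11981 genes, threshold 0.05). On simulated counts for 11981 genes it recovered 60.0% of 2-fold and 94.0% of 4-fold changes, with 7.23% of calls false. The simulated columns were drawn independently, with 1 dispersion for all genes and no pairing of the alleles of a library. These rates thus need not hold for the real counts. Both allele columns of a library were made from 1 RNA sample, so its number pairs them. Their deviations had a correlation of 0.601 over 7565 genes. The fit without the library block leaves out this pairing, so a gene that it does not call can still be imbalanced. The SE of an edgeR log2 ratio was not estimated directly. It is the size of the ratio divided by the square root of the test's F statistic. DESeq2 1.42.0 was an alternative. The labels do not say whether RNA libraries came from separate animals, and p-values cover the spread between the libraries alone, which may be technical. Intervals and limits cover counting error only. Region counts were tested with SciPy 1.17.1. Members, lists and tests were chosen with earlier results of these data known. Genes were named where they overlap a short region and were called, were among the 10 with the most reads, are imprinted or hold 2 regions. Regions were named by level difference (6 per direction), by a called or imprinted gene, by the length limit (3 per side) or by a promoter window.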

Additional observations from a re-analysis of the deposited data

How the results depend on the processing

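The direction of the short regions kept its side of the threshold under the 8 alternatives run, with C57-higher shares from 86.2% (limit of 100 bp) to 96.6% (level difference of at least 0.8). The odds ratio against other lengths stayed between 7.90 and 8.59. The all-or-none share was 75.9% with a limit of 25 bp, 58.3% with 100 bp, 83.1% with cutoffs of 0.8 and 0.2, and 56.0% with 0.95 and 0.05. The share inside a locus was 55.3% with 2 kb added to each side and 25.6% for loci with an FPKM of at least 1. The even-length share, with alternatives added after seeing the data, was 88.9% at a Spretus level of exactly 0, 88.8% at a level difference of at least 0.8, and 70.5% at a Spretus level above 0. With the library as a replicate block, 2603 autosomal and 43 overlapped genes were called, against 629 and 11 without it, and all 11 remained called. DESeq2 called 255 and 6, no filter on low counts gave 1290 autosomal calls, and at least 50 reads in each library gave 165 and 3, where fewer genes were tested. With 1 total shared by both alleles of a library, the median autosomal log2 ratio moved from 0.02 to -0.11, and 9 overlapped genes were called. Leaving out an RNA library leaves 1 column per allele and no residual degrees of freedom, so it gives ratios and no calls. The ratios of the called genes kept their direction in each library, but those of Traf5 (1.79 and 2.86), Cep192 (1.19 and 2.18) and Zdbf2 (4.63 and 3.14) differed between libraries 1 and 2. For Peg10, library 2 gave no ratio, since it had no C57 read.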
